A study of Mus musculus with 60 samples.

Results

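Overlapping neurons of the nucleus accumbens (NAc) core, which carried the tag for cocaine seeking and also stained for cFos after sucrose seeking, were set against non-ensemble neurons, which carried neither label. The libraries were found by their titles, which give the region, sex, population and pool: 6 overlapping and 6 non-ensemble libraries, 12 of 60 in the series. The 6 pools, 3 of female and 3 of male mice, each gave 1 library of either population, so that the comparison was made within pools. It asks what sets apart, in 1 sort of the same tissue, neurons recruited by both rewards from neurons recruited by neither.

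All mice were adult Ai14xFosiCre animals, in which Cre is driven by the Fos promoter and removes a stop before the fluorescent protein tdTomato once 4-hydroxytamoxifen is given. Every mouse of these libraries went through dual cocaine and sucrose self-administration, extinction and cued reinstatement of each reward. The drug was given around cocaine reinstatement, so tdTomato marked cells active then, and an antibody to cFos protein marked cells active in the later sucrose reinstatement. The order of the rewards was the same in all mice, so reward and marking method (a past genetic tag or present protein) cannot be told apart. Dissociated cells were sorted for NeuN, a nuclear protein of neurons, and then by the 2 activity labels. Cells of 3 mice were pooled for a library, and the cocaine-seeking (tdTomato alone) and sucrose-seeking (cFos alone) libraries of a pool came from the same mice. The punches are labelled as core, and the study's methods place them mainly in lateral shell and core. The tdTomato transgene was not among the transcripts counted, so the tag itself could not be read in the libraries.

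The NAc is a striatal region of the reward circuit in which nearly all neurons are GABAergic medium spiny neurons (MSNs), bearing either D1 or D2 dopamine receptors. A neuronal ensemble is the sparse set of cells active during a particular experience, and immediate early genes such as Fos are switched on briefly by that activity. Microglia, the resident macrophages of the brain, survey and prune synapses and are marked by genes such as Tmem119 and P2ry12.

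The values were RNA counts per transcript, summed here to genes. The labels name polyA RNA as the molecule, whereas the study's methods describe a SMART-seq preparation for small inputs with ribosomal RNA removed. Which of these applies cannot be read from the files, and it bears on RNAs without a polyA tail. Non-ensemble libraries held 13219942 to 20262217 counts and overlapping libraries 9955013 to 16845633, fewer in overlapping in 6 of 6 pools (exact sign-flip permutation test over the 6 pools, two-sided p = 0.03125, the lowest these pools allow). Adjusted over the 5 library measures tested, this and the next 3 p-values became 0.0391. The share of counts on pseudogenes was 3.05 to 4.24% against 3.73 to 6.52%, higher in overlapping in 6 of 6 pools. Chemosensory receptor genes took 1.05 to 1.98% against 1.61 to 3.20%, again higher in 6 of 6 pools, and mitochondrial genes took 2.54 to 3.44% against 2.27 to 2.69%, lower in 6 of 6. These shifts moved with the comparison, and their part in the results below was not tested. In bulk libraries, fewer cells of a type and less RNA per cell cannot be told apart. Summed over 23 general MSN genes, the 8 libraries of male pools 1 and 2 held 5326 to 8817 CPM (counts scaled to a common library size) and the 16 of the other 4 pools 8363 to 12099.5 CPM, a difference between pools that the block term carries.

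The labels of 1 pool did not match its RNA. In all 4 NAc libraries labelled female pool 2, the Y-linked gene Ddx3y stood at 12.1 to 20.5 CPM and Eif2s3y at 4.90 to 13.2 CPM. In the 8 libraries of female pools 1 and 3 they were at 0.337 to 2.24 and 0 to 1.10 CPM, and in the 12 male libraries at 15.7 to 39.2 and 8.05 to 37.9 CPM. Titles and characteristics call this pool female, while the description field of its non-ensemble library names male prefrontal cortex. Whether the pool held male mice was not settled, and results that lean on sex are given with and without it.

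Across the 25150 genes tested, more genes were lower in overlapping neurons than higher, but the larger changes were nearly all upward. With an adjusted p under 0.05 (edgeR quasi-likelihood test on the 24 NAc libraries of the 4 populations, pool as a block, Benjamini-Hochberg adjustment), 1887 genes rose (7.5%) and 2694 fell (10.7%). Past an adjusted p of 0.01 and a log2 fold change of 0.75 in either direction there were 280 (1.11%), of which 263 rose (1.05%) and 17 fell (0.0676%). In 228 genes (0.907%) the 6 overlapping libraries all lay above the 6 non-ensemble libraries, and in 288 (1.15%) all lay below. Among the 10612 protein-coding genes with a mean of at least 10 CPM, 906 rose (8.54%) and 2629 fell (24.8%).

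The direction followed the expression level. The median log2 fold change was 0.58 for genes under 1 CPM, 0.32 from 1 to 10 CPM, -0.076 from 10 to 100 CPM and -0.20 over 100 CPM. Of the 2414 genes over 100 CPM, 1308 fell (54.2%) and 276 rose (11.4%), whereas under 1 CPM 148 of 5258 rose and 4 fell. The median over all genes was 0.10, so a gene at 0 in this fit lay slightly under the typical gene tested. For the protein-coding genes of at least 10 CPM, to which most genes named here belong, the median was -0.12, so there a gene at 0 lay above the typical gene. Leaving out the pool term lowered the counts to 590 up and 640 down, and counts scaled to transcript length gave 677 up and 1349 down.

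**Figure D1:**
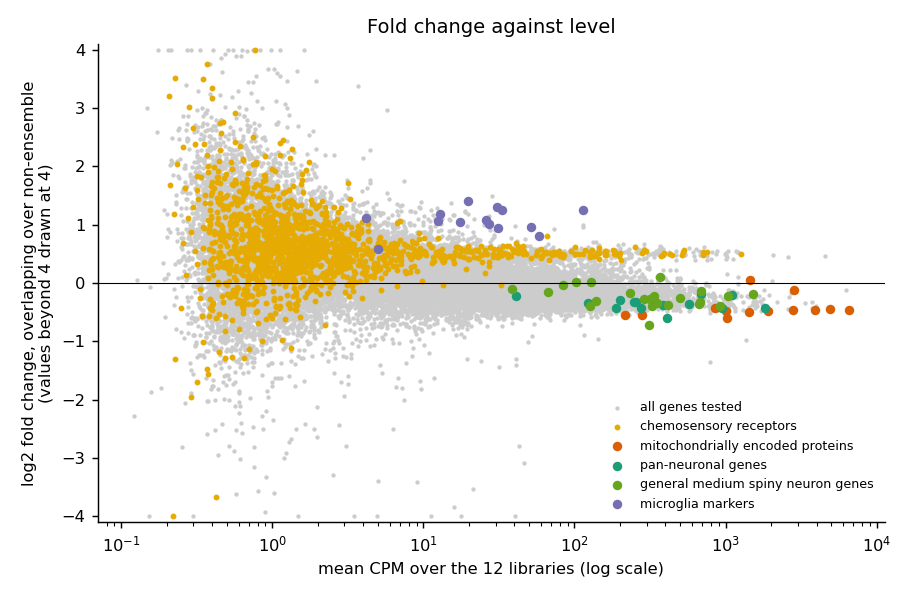
Fold change against expression level. The x axis is the mean CPM over the 12 libraries on a log scale and the y axis the fitted log2 fold change of overlapping over non-ensemble neurons, with values beyond 4 drawn at 4. Each point is a gene. Chemosensory receptor genes lie mostly above 0, abundant neuronal and mitochondrial genes mostly below, and the microglia markers stand near 1 at levels where most genes lie near 0.

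The transcripts closest to the sort labels did not rise in overlapping neurons. Levels of a gene are given from here on as the median of the 6 libraries with the lowest and highest in square brackets, first for non-ensemble. Changes are log2 fold changes with a standard error (SE). The quasi-likelihood test gives no SE, so it was taken as the absolute log2 fold change over the square root of the test's F statistic. Fos, whose protein was the sort label for sucrose activity, was 12.8 [6.52 to 22.1] CPM in non-ensemble and 10.4 [7.12 to 15.8] CPM in overlapping libraries, a log2 fold change of -0.23 ± 0.17 SE (adjusted p = 0.372, edgeR). It was lower in 4 of 6 pools, and the 2 groups overlapped almost fully. Its relative Fosb was 15.5 [12.3 to 21.1] CPM against 13.9 [8.85 to 14.2] CPM, with a log2 fold change of -0.40 ± 0.15 SE and an adjusted p of 0.0727. Npas4, a neuron-specific early factor, was 17.4 [13.8 to 19.8] against 16.4 [7.82 to 22.9] CPM. Egr1, a zinc finger factor, was 67.2 [52.9 to 96.2] against 72.5 [40.1 to 121] CPM. Neither passed the test (adjusted p = 0.468 and 0.684, edgeR), and pools went both ways for each.

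Of 22 immediate early genes, 4 fell (18.2%), namely Egr3, Arc, Nr4a3 and Homer1, with a list median of -0.20. That share lay between the 10.7% of all genes and the 24.8% of protein-coding genes of at least 10 CPM (median -0.12). In edgeR, DESeq2 and limma-voom alike 0 of the 22 rose, also at an unadjusted p under 0.05. Egr3, of the same family as Egr1, was 113 [97.5 to 134] CPM in non-ensemble and 82.4 [62.2 to 106] CPM in overlapping libraries (log2 fold change -0.45 ± 0.077 SE, adjusted p = 0.000224, edgeR). Arc, which shapes AMPA receptor traffic at synapses, was 132 [81.1 to 194] against 104 [60.7 to 129] CPM (log2 fold change -0.39 ± 0.075 SE, adjusted p = 0.000592). Both were lower in overlapping in 6 of 6 pools although the groups overlapped. Junb and Nr4a1 gave log2 fold changes of -0.053 and -0.21 and did not pass. With length-scaled counts, only Homer1, a scaffold of postsynaptic glutamate receptors, fell (-0.49, adjusted p = 0.0110) and the list median was 0.064. Arc then stood at 0.17, so its direction depended on the scaling.

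Of 25 delayed activity genes, which follow the immediate early wave, 3 fell (12%), near the 10.7% of all genes. With edgeR, DESeq2 or limma-voom 0 of the 25 rose at an adjusted or unadjusted p under 0.05. Plk2, a kinase that weakens overactive synapses, was 209 [192 to 257] against 185 [133 to 239] CPM (-0.27 ± 0.063 SE). Nptx2, which clusters AMPA receptors, was 36.5 [28.9 to 55.6] against 30.6 [23.5 to 35.1] CPM (-0.34 ± 0.10 SE). Scg2, a granin of dense-core vesicles, was 353 [299.6 to 410.3] against 297 [236 to 402] CPM (-0.23 ± 0.072 SE). In all 3 the groups overlapped, and only Scg2 was higher in any overlapping library than in its pool partner. Rbfox3, the gene of the sort antigen NeuN, was 291 [239 to 309] against 219 [212 to 251] CPM (log2 fold change -0.33 ± 0.060 SE, adjusted p = 0.000365, edgeR), lower in 6 of 6 pools, but its length-scaled fold change was -0.025.

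**Figure D2:**
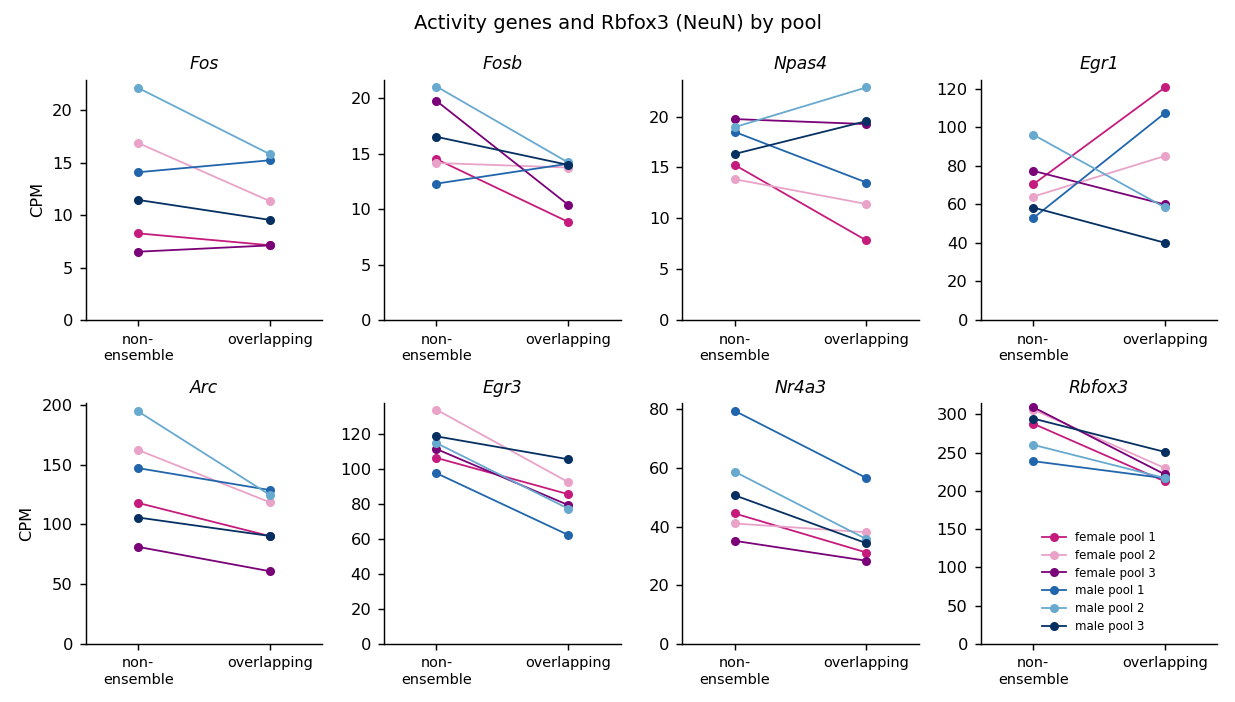
Activity genes and Rbfox3 by pool. Each panel gives CPM in the non-ensemble and the overlapping library of each of the 6 pools, joined by a line. Lines for Arc, Egr3, Nr4a3 and Rbfox3 slope down in all 6 pools, while those for Egr1 and Npas4 cross.

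Microglia genes rose in the overlapping libraries. Of 14 microglia markers, all tested, 13 rose and 0 fell, against 7.5% of all genes that rose, with a list median of 1.07 on the log2 scale. In 12 of them the 6 overlapping libraries all lay above the 6 non-ensemble libraries, as they did in 0.907% of all genes. The summed level of the list was 242 to 347 CPM in non-ensemble and 527 to 708 CPM in overlapping libraries, higher in 6 of 6 pools by 1.52 to 2.42 times, and no marker was at 0 in any of the 12. Microglia lack NeuN, by which the cells were sorted, and the part of carried-over cells or RNA in this rise was not tested.

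Csf1r, the receptor for CSF1 and IL-34 on which microglia depend for survival, was 65.3 [56.2 to 89.2] CPM in non-ensemble and 157 [135 to 190.2] CPM in overlapping libraries (log2 fold change 1.26 ± 0.10 SE, adjusted p = 7.49e-08, edgeR). Laptm5, a lysosomal membrane protein of blood-derived cells, was 19.0 [17.1 to 23.2] against 46.1 [40.8 to 52.6] CPM (log2 fold change 1.25 ± 0.12 SE, adjusted p = 9.92e-07). The lowest overlapping library lay well above the highest non-ensemble library for both. Tmem119, a membrane protein used to tell microglia from other macrophages, was 11.7 [6.49 to 12.9] against 29.3 [21.3 to 36.5] CPM, the largest fold change of the list (1.405 ± 0.17 SE, adjusted p = 1.07e-05). P2ry12, the purine receptor by which resting microglia sense ATP, was 10.1 [8.47 to 15.6] against 23.7 [17.3 to 30.7] CPM (1.05 ± 0.16 SE, adjusted p = 5.88e-05). For these 2 as well, all overlapping libraries exceeded all non-ensemble libraries.

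The genes of complement C1q, which opens the classical complement cascade and tags synapses for removal, are neighbours on the minus strand of chromosome 4, at chr4:136606009-136613511 (C1qb), chr4:136616466-136620376 (C1qc) and chr4:136623223-136626161 (C1qa) in build GRCm39. C1qa was 19.1 [16.9 to 29.7] against 39.9 [31.5 to 57.8] CPM. C1qb was 17.2 [13.3 to 23.5] against 38.1 [26.6 to 42.8] CPM. C1qc was 18.6 [13.4 to 20.8] against 44.6 [31.9 to 53.4] CPM. Their log2 fold changes were 0.95 ± 0.12 SE, 1.01 ± 0.15 SE and 1.30 ± 0.16 SE, with adjusted p of 1.68e-05, 5.53e-05 and 1.52e-05 (edgeR), and none of the 3 had overlapping groups. Ctss, the lysosomal protease cathepsin S, was 41.0 [33.7 to 52.98] against 76.9 [60.9 to 86.9] CPM (0.81 ± 0.10 SE), again with groups apart.

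Scarcer members also rose. Trem2, a lipid-sensing receptor, was 8.04 [5.45 to 11.6] against 15.4 [12.2 to 24.4] CPM (1.06 ± 0.15 SE). Siglech, a sialic acid-binding lectin, was 6.91 [5.51 to 12.4] against 16.6 [14.6 to 23.4] CPM (1.19 ± 0.21 SE). Aif1, which codes for the microglial stain Iba1, was 2.70 [1.58 to 3.19] against 6.38 [4.07 to 6.75] CPM (1.12 ± 0.26 SE). Each overlapping library of these 3 lay above each non-ensemble library. Cx3cr1, the receptor for the neuronal chemokine fractalkine, rose by 1.08 ± 0.22 SE (adjusted p = 0.00102, edgeR) but its groups overlapped, at 15.5 [8.06 to 30.5] and 31.5 [27.1 to 53.4] CPM, and female pool 2 went the other way. Tyrobp, the adaptor of Trem2, was 4.14 [2.44 to 5.94] against 5.93 [4.84 to 7.39] CPM and did not pass (0.58 ± 0.26 SE, adjusted p = 0.132). No alternative fit brought the list below 12 members called, and with length-scaled counts or without the pool term 13 still rose.

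**Figure D3:**
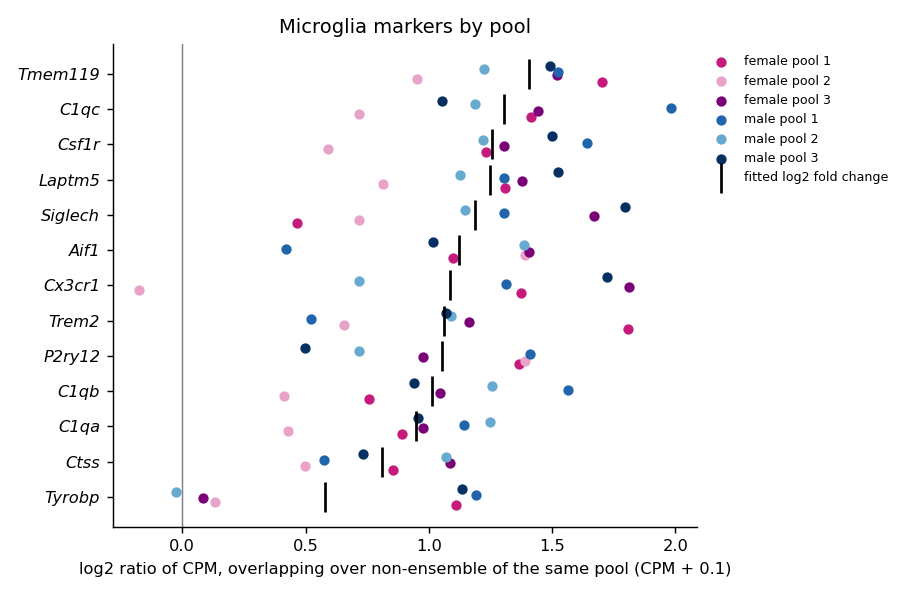
Microglia markers by pool, for 13 of the 14 markers. The x axis is the log2 ratio of CPM plus 0.1 in the overlapping over the non-ensemble library of the same pool, each point a pool and each black line the fitted log2 fold change. All points but 1 of Cx3cr1 (female pool 2) and 1 of Tyrobp (male pool 2) lie right of 0.

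Promoters of 9 of the 14 markers had an entry in the RefSeq table, and 3 are printed to show the regions from which the leading transcripts start. They are the 250 bases before the start, 5′ to 3′ on the gene's strand, build GRCm38.p6, for Laptm5 (chr4:130913066-130913315, plus strand), Ctss (chr3:95526536-95526785, plus strand) and C1qc (chr4:136892915-136893164, minus strand). Capitals mark GAGGAAGT, a core site of the myeloid factor PU.1, searched on both strands, so that ACTTCCTC is its reverse complement.
Laptm5: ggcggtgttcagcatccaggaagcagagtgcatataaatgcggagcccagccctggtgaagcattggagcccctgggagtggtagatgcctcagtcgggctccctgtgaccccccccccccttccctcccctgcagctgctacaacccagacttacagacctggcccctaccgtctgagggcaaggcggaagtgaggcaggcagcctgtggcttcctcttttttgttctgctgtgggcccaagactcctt
Ctss: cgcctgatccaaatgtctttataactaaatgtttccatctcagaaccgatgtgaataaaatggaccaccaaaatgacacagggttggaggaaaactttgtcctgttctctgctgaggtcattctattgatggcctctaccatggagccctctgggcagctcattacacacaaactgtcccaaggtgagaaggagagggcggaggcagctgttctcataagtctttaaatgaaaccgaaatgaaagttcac
C1qc: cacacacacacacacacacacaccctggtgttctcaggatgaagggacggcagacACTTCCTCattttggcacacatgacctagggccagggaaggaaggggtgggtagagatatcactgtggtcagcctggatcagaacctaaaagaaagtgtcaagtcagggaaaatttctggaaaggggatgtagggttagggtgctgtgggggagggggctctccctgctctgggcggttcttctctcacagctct
The match in C1qc starts 195 bases before the transcript start. Of the 9 markers 1 held the motif (11.1%), and 2.79% of the 27025 genes with an entry did.

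Several genes outside the marker list were among the 12 with the highest fold changes of the protein-coding genes over 10 CPM. Slco2b1, an organic anion transporter, was highest at 1.50 ± 0.15 SE (adjusted p = 1.53e-06, edgeR), at 14.8 [9.31 to 19.0] against 43.7 [29.7 to 51.7] CPM. Unc93b1, which brings Toll-like receptors to endosomes, was 11.6 [8.55 to 13.7] against 25.5 [19.7 to 34.9] CPM (1.23 ± 0.15 SE). Runx1, a factor of blood cell development, was 5.83 [4.93 to 9.46] against 16.5 [9.70 to 19.9] CPM (1.25 ± 0.17 SE). All 3 had groups that did not overlap. Arhgap45, a RhoGAP of blood cells that overlaps Polr2e on the other strand, gave 1.37 and the fibrillar collagen Col27a1 1.19, also with groups apart. The predicted gene Gm38431 (1.24) shares its span with Raver1 and Fdx2 on the same strand, and reads could be split among them.

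In other lists of immune and vascular cells few members passed the test, and no difference between lists was tested. Of 10 border macrophage and other immune markers 1 rose (10%, against 7.5% of all genes), with a median of 0.13 that became 0.45 without female pool 2. Their summed level was 25.7 to 40.7 CPM in non-ensemble and 34.2 to 53.3 CPM in overlapping libraries, higher in 6 of 6 pools by 1.08 to 1.80 times. The member that rose was the B cell gene Ms4a1 (7.22 [6.16 to 9.78] against 10.96 [8.40 to 16.7] CPM, 0.58 ± 0.16 SE). Of 14 endothelial markers 0 rose and 0 fell in edgeR, DESeq2 or limma-voom, with 0 at an unadjusted p under 0.05 in any of them. Flt1, a VEGF receptor, was 35.8 [24.1 to 52.1] against 35.9 [29.5 to 52.1] CPM with a log2 fold change of 0.089 ± 0.13 SE. Of 11 pericyte and smooth muscle markers 1 rose (9.09%), Higd1b, at 0.663 [0.163 to 0.857] against 1.29 [0.824 to 2.92] CPM. Its call was lost in limma-voom (adjusted p = 0.0773), without the low-count filter (0.0738, edgeR), without the pool term and in 10 of the 12 fits that left out 1 library.

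In the main fit, markers of other glia mostly fell where they changed. Of 14 oligodendrocyte and myelin markers 10 fell and 1 rose, where 10.7% of all genes fell. Mbp, the myelin basic protein, was 1366 [984 to 1642] against 1014 [723 to 1172] CPM (-0.47 ± 0.064 SE, adjusted p = 2.71e-05, edgeR). It was lower in 6 of 6 pools, with groups that overlapped. The exception, the connexin Gjc3, rose by 0.22 ± 0.077 SE, a call that was lost in limma-voom (adjusted p = 0.0617), without the pool term, without female pool 2 and in 7 of the 12 fits that left out 1 library. With length-scaled counts 7 of the list fell, and without the pool term 2. Of 10 oligodendrocyte precursor markers 5 fell, among them Bcas1 (-0.54) and Olig1 (-0.53), and the proteoglycan Vcan rose (0.26). Of 14 astrocyte markers 4 fell (28.6%), namely S100b, Glul, Aldoc and Slc1a2, near the 24.8% of protein-coding genes of at least 10 CPM. With length-scaled counts 1 astrocyte marker fell and 1 rose (median -0.0023). Of the precursor markers 1 then fell and 0 rose (median 0.20). S100b, a calcium-binding protein, was 71.7 [57.3 to 81.3] against 47.5 [40.4 to 52.7] CPM (-0.59 ± 0.081 SE), with groups apart. Glul, the glutamine synthetase, was 953 [706 to 1110.3] against 714 [609 to 819] CPM (-0.42 ± 0.068 SE), with groups that overlapped. Meningeal Ptgds and Igf2 fell by 0.48 and 0.68 on the log2 scale, and 3 of 5 erythrocyte genes fell, including Hba-a2 (-0.74), whose reads cannot be told from those of its near-identical copy Hba-a1.

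**Figure D4:**
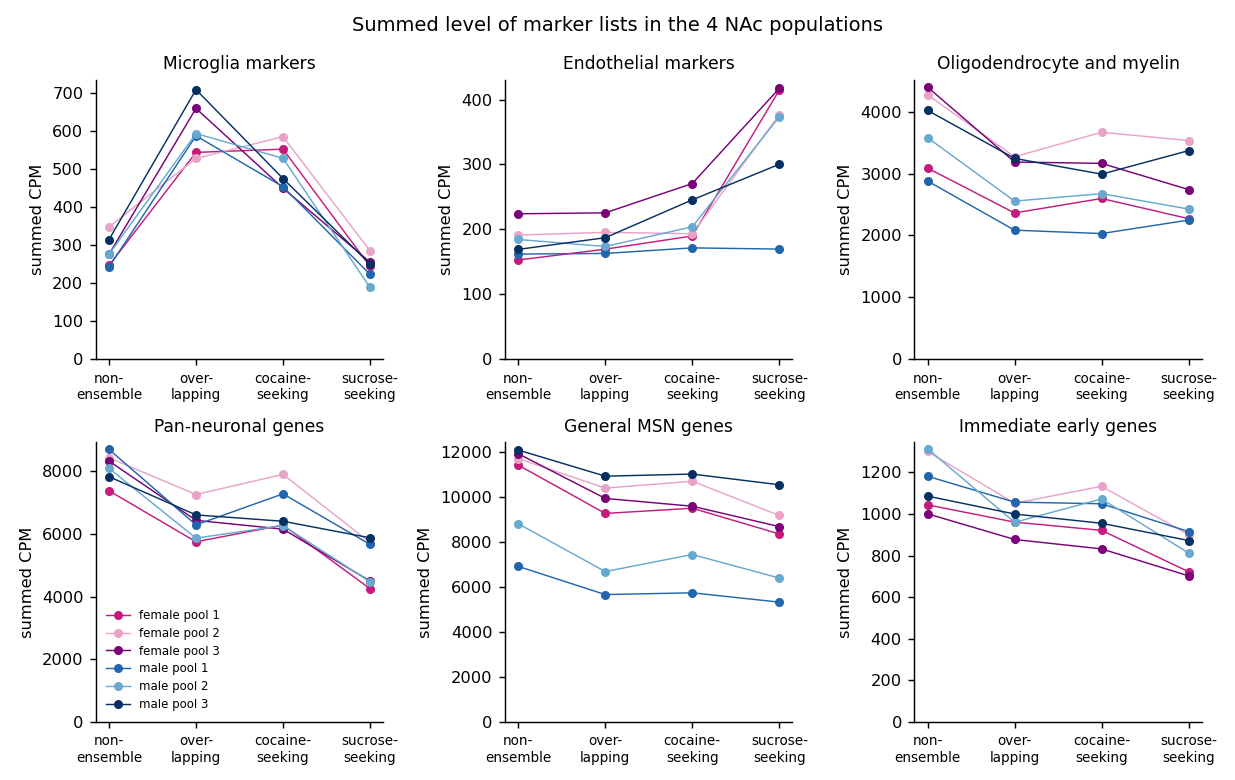
Summed level of 6 marker lists in the 4 NAc populations. The y axis is the sum of CPM over the list, each line a pool. The microglia sum is high in overlapping (527 to 708 CPM) and cocaine-seeking libraries (449 to 585 CPM) and low in non-ensemble (242 to 347 CPM) and sucrose-seeking libraries (188 to 285 CPM), while the pan-neuronal sum is highest in non-ensemble libraries in every pool.

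Where neuronal identity genes passed the main test, they fell. Of 23 general MSN genes 15 fell (65.2%), with a median of -0.26. Of all genes over 100 CPM 54.2% fell, and of protein-coding genes of at least 10 CPM 24.8%, so the share was near that of abundant genes at large. Ppp1r1b, which codes for DARPP-32, the integrator of dopamine signals in MSNs, was 1104 [682 to 1272] against 826 [508 to 1048] CPM (-0.40 ± 0.057 SE, adjusted p = 4.11e-05, edgeR). Bcl11b, a transcription factor of MSN development, was 499 [371 to 537] against 384 [263 to 439] CPM (-0.38 ± 0.056 SE). Pde1b, a calmodulin-driven phosphodiesterase, was 802 [438 to 906] against 652 [356 to 732] CPM (-0.35 ± 0.054 SE). Each was lower in 6 of 6 pools, and the groups overlapped. Without the pool term 0 of the 23 fell, and with length-scaled counts 5 fell and the median was -0.017. Under that scaling Ppp1r1b and Bcl11b stood at 0.029 and 0.29.

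The D1 and D2 markers that passed the test fell, beside 24.8% of protein-coding genes of at least 10 CPM. Of 8 D1 markers 3 fell (37.5%), while 3 lay above 0, and the list sum was lower in overlapping in 5 of 6 pools. Drd1, the D1 dopamine receptor, was 104 [65.3 to 128] against 90.8 [48.4 to 107] CPM (-0.30 ± 0.072 SE, adjusted p = 0.00392, edgeR). Pdyn, the dynorphin precursor, was 133 [89.5 to 161] against 114 [62.6 to 133] CPM (-0.35 ± 0.078 SE). Tac1, the substance P precursor, was 94.8 [62.9 to 125] against 73.1 [50.4 to 99.2] CPM (-0.30 ± 0.10 SE), and its call was lost in limma-voom (adjusted p = 0.0539), in the fit of the 12 compared libraries alone (0.0766, edgeR) and in 8 of the 12 fits that left out 1 library. Of 6 D2 markers 3 fell as well (50%), and all 6 lay under 0. Drd2, the D2 receptor, was 124 [65.2 to 153] against 105 [48.1 to 121] CPM (-0.25 ± 0.075 SE, adjusted p = 0.0215). Adora2a, the adenosine receptor that opposes it, was 159.6 [80.2 to 171] against 125 [56.0 to 147] CPM (-0.34 ± 0.070 SE). Penk, the enkephalin precursor, was 1213 [729 to 1412] against 1006 [518 to 1201] CPM (-0.32 ± 0.051 SE). Drd1 and Drd2 were each lower in 6 of 6 pools, and the groups of all 6 genes overlapped. The list medians were -0.15 and -0.28, and no difference between the classes was tested. With length-scaled counts Drd2 stood at 0.11, and without the pool term no member of either list passed.

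Of 16 interneuron markers 3 fell (18.8%), a share between the 10.7% of all genes and the 24.8% of protein-coding genes of at least 10 CPM. In the main test and limma-voom 0 rose, whereas DESeq2 and edgeR's likelihood-ratio test each called 1 marker higher. Pvalb, of fast-spiking cells, was 17.5 [12.1 to 22.4] against 12.2 [7.65 to 16.6] CPM (-0.50 ± 0.14 SE), and Chat and Slc5a7, of cholinergic cells, gave -0.45 and -0.47. Of 12 markers of cortical excitatory neurons 4 fell, including Slc17a7, the vesicular glutamate transporter VGLUT1, at 333 [212 to 597] against 267 [195 to 506] CPM (-0.20 ± 0.064 SE), and Tbr1 (-0.33). Length-scaled counts turned the direction of both (0.26 and 0.088). Summed over the 12, the 8 libraries of male pools 1 and 2 held 614 to 1226 CPM and the 16 of the other 4 pools 435 to 798 CPM. In non-ensemble libraries labelled NAc the sum was 701 to 1226 CPM (median 795). In those labelled prefrontal cortex, scaled separately, it was 315 to 1427 CPM (median 382). Whether cortical tissue entered the NAc punches was not tested. Gad1, the GABA-making enzyme of MSNs and interneurons, was 487 [369 to 518] against 380.3 [275 to 491] CPM (-0.34 ± 0.077 SE, adjusted p = 0.00286, edgeR).

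Most structural and general neuronal genes fell. Of 14 pan-neuronal genes 12 fell (85.7%, median -0.35) and of 27 neurofilament, microtubule and actin genes 26 fell (96.3%, median -0.36), where 54.2% of all genes over 100 CPM did. The neurofilament Nefl was 508 [360.2 to 623] against 334 [231 to 448] CPM (-0.59 ± 0.072 SE, adjusted p = 1.17e-05, edgeR). Map2, the dendritic microtubule protein, was 2084 [1924 to 2192] against 1549 [1388 to 1786] CPM (-0.42 ± 0.056 SE). Snap25, a SNARE of synaptic vesicle fusion, was 1091 [999 to 1185] against 795 [716 to 969] CPM (-0.43 ± 0.073 SE). In Map2 and Snap25 all 6 overlapping libraries lay under all 6 non-ensemble libraries, and in Nefl the ranges met. With length-scaled counts 4 of the 14 and 5 of the 27 fell, and without the pool term 5 and 12 did.

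Among signalling genes downstream of dopamine and calcium, the shares that fell are to be read beside the 54.2% of genes over 100 CPM. Of 26 genes of dopamine receptors and cAMP signalling 17 fell (65.4%, median -0.31), the smallest adjusted p with Ppp1r1b, Pde1b and Prkar1b, a regulatory subunit of protein kinase A (411 [371 to 475] against 304 [261 to 396] CPM, -0.41 ± 0.067 SE). Length-scaled counts left 3 of these and a median of 0.013. Of 24 calcium, calmodulin and PKC genes 18 fell (75%). The calmodulin regulator Pcp4 was 282 [204 to 321] against 202 [128 to 225] CPM (-0.55 ± 0.068 SE, adjusted p = 1.39e-05, edgeR). Camk2a, the calmodulin kinase of plasticity, was 2172 [1886 to 2266] against 1527 [1399.9 to 1797] CPM (-0.45 ± 0.059 SE), with groups apart for Camk2a. The ryanodine receptor Ryr3 rose, at 284 [135 to 379] against 342 [249.4 to 403] CPM (0.35 ± 0.092 SE). Rgs4, a brake on G protein signals, fell, at 315 [227 to 366] against 239 [149 to 265] CPM (-0.47 ± 0.072 SE). The cannabinoid receptor Cnr1 and Mgll, which breaks down its ligand, gave -0.27 and -0.30. Of 20 opioid and neuropeptide receptors 0 rose and 0 fell in edgeR, DESeq2 or limma-voom, and at an unadjusted p under 0.05 the first pair had 0 and limma-voom 2.

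At the synapse, 21 of 29 presynaptic release genes and 14 of 19 postsynaptic scaffolds fell (72.4 and 73.7%), with medians of -0.27 and -0.25. Among all genes over 100 CPM 54.2% fell, and among protein-coding genes of at least 10 CPM 24.8%. Cplx2, a complexin that clamps vesicle fusion, was 1819 [1552 to 2085] against 1391 [1218 to 1659] CPM (-0.40 ± 0.060 SE). Nsf, the ATPase that recycles SNAREs, was 673 [636 to 770.5] against 497 [436 to 627] CPM (-0.41 ± 0.068 SE, groups apart). Dlg4, the scaffold PSD-95, was 902 [785 to 1018] against 729.6 [573 to 801] CPM (-0.36 ± 0.057 SE, adjusted p = 0.000115, edgeR). Length-scaled counts left 4 and 2 members, with Dlg4 at 0.029, and the fit without the pool term left 6 and 3. Of 23 ionotropic glutamate receptor genes 3 fell, such as the AMPA receptor partner Cnih2 (-0.37), and the kainate receptor Grik2 rose (0.25). Of 7 metabotropic receptors Grm7 rose (0.37) and Grm3 fell (-0.28). Of 14 GABA receptor genes 7 fell (50%), the lowest adjusted p with Gabbr1 (-0.25). Without the pool term 0 members of these receptor lists rose or fell.

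Of 21 synaptic adhesion genes 3 fell (14.3%), of 20 sodium and calcium channel genes 6 (30%), and of 30 potassium channel genes 10 (33.3%), with medians of -0.13, -0.079 and -0.14. These are near the 24.8% and the median of -0.12 of protein-coding genes of at least 10 CPM. Scn4b, a sodium channel subunit rich in MSNs, was 595 [323 to 693] against 491 [257 to 606] CPM (-0.26 ± 0.054 SE). Kcnk1, a leak channel, was 93.6 [77.3 to 110.1] against 74.8 [50.995 to 87.7] CPM (-0.38 ± 0.089 SE). Groups overlapped for both. Of 19 collagens, laminins and net components 5 rose (26.3%, against 7.5% of all genes) and 1 fell. Their median was 0.15, where that of all genes was 0.10. The list sum was higher in overlapping in 3 of 6 pools, at 0.945 to 1.09 times the non-ensemble sum. With length-scaled counts 3 rose, without the pool term 0, in female libraries alone 0 and in male libraries alone 3. The basement membrane collagen Col4a1 was 37.2 [27.3 to 58.4] against 54.7 [45.4 to 64.03] CPM (0.49 ± 0.12 SE). Col6a1, of fibre-binding microfibrils, was 71.5 [26.8 to 129] against 108 [59.6 to 136] CPM (0.51 ± 0.13 SE), with overlapping groups, and the perineuronal net proteoglycan Ncan fell (-0.24, groups apart).

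Most genes of energy and protein production fell. Of 85 nuclear oxidative phosphorylation genes 61 fell (71.8%, median -0.41), of 88 cytosolic ribosomal proteins 62 (70.5%, median -0.39), and of 13 mitochondrially encoded proteins 11 (84.6%, median -0.47). Beside these, 54.2% of all genes over 100 CPM and 24.8% of protein-coding genes of at least 10 CPM fell. In edgeR's quasi-likelihood test, DESeq2 and limma-voom 0 members of the 3 lists rose, and in edgeR's likelihood-ratio test 1 oxidative phosphorylation gene did. At an unadjusted p under 0.05 the quasi-likelihood test had 1 oxidative phosphorylation gene, 1 ribosomal gene and 0 mitochondrially encoded genes higher. mt-Co1, the catalytic subunit of cytochrome oxidase, was 7905 [5636 to 8530.0] against 5604 [4785 to 5999] CPM (-0.46 ± 0.062 SE, adjusted p = 2.40e-05, edgeR). Atp5mj, a small ATP synthase subunit, was 52.9 [48.2 to 58.9] against 36.2 [27.0 to 41.2] CPM (-0.62 ± 0.099 SE). Rpl23a, of the large ribosomal subunit, was 254 [228 to 303] against 180.3 [141 to 211] CPM (-0.54 ± 0.070 SE). For Atp5mj and Rpl23a the groups were apart, whereas for mt-Co1 the lowest non-ensemble library lay under the highest overlapping library. With length-scaled counts the 3 medians were -0.58, -0.56 and -1.03, and 43, 51 and 12 members fell. Without the pool term 31, 18 and 10 fell.

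Of 19 heat shock chaperones 12 fell (63.2%, median -0.33), where 54.2% of all genes over 100 CPM did. Hspa8, the constitutive Hsc70, was 1791 [1554 to 1993] against 1305 [1096 to 1589] CPM (-0.43 ± 0.076 SE, adjusted p = 0.000268, edgeR). Hsp90aa1, an inducible Hsp90, was 900.2 [863 to 961] against 664 [549 to 851] CPM (-0.43 ± 0.080 SE, groups apart). Of 15 unfolded protein genes 3 fell (20%) and of 10 p53 targets 1 (10%). Both shares lay under the 24.8% of protein-coding genes of at least 10 CPM, and of all genes 10.7% fell. Of 15 interferon and MHC class I genes 1 fell and 0 rose in edgeR, and 0 rose in DESeq2 or limma-voom, with 3, 3 and 2 higher at an unadjusted p under 0.05. Of the 15 fold changes 13 lay above 0 (median 0.31). The median of all genes was 0.32 from 1 to 10 CPM and -0.076 from 10 to 100 CPM. The summed level of the list was 130.03 to 165 CPM in non-ensemble and 152 to 173 CPM in overlapping libraries, higher in 5 of 6 pools. Of 15 glucocorticoid targets and clock genes Per3 rose (0.28) and 3 fell (20%), including Bmal1 (-0.27), its activator. Among 24 chromatin regulators 9 fell (37.5%) and 1 rose, with a median of -0.054. The share that fell lay between the 24.8% of protein-coding genes of at least 10 CPM and the 54.2% of genes over 100 CPM. The member that rose was the demethylase Tet2, by 0.31 ± 0.10 SE.

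**Figure D5:**
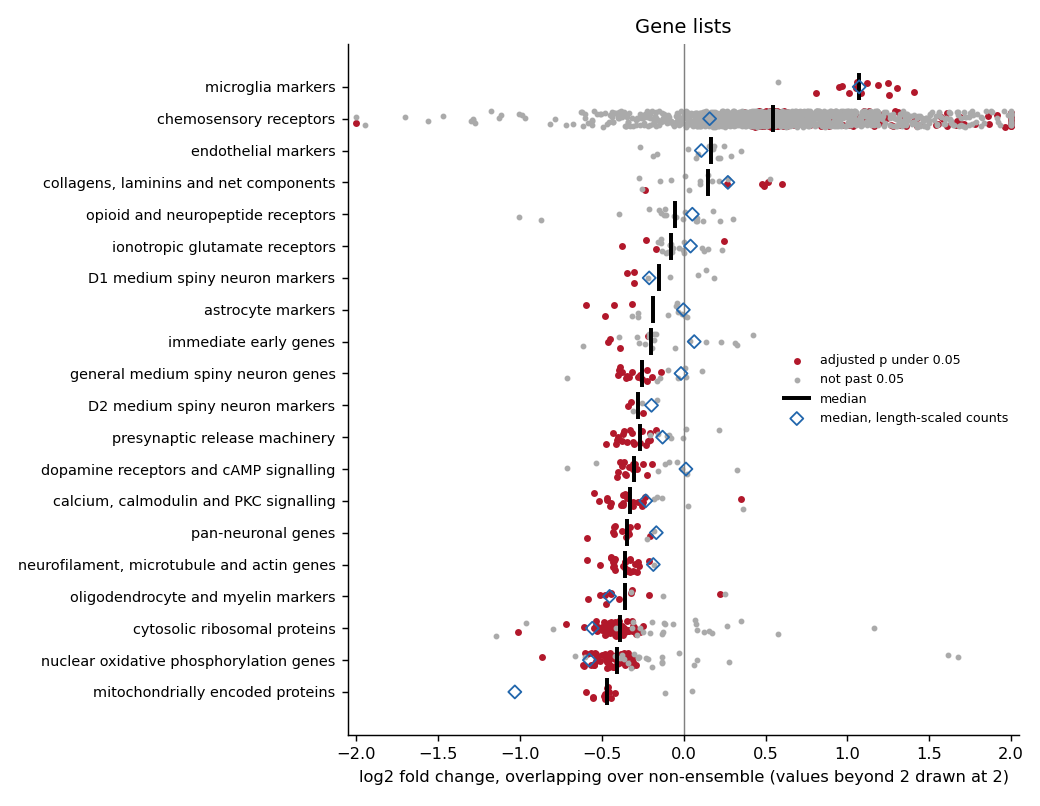
Fold changes by gene list. The x axis is the fitted log2 fold change, with values beyond 2 drawn at 2, and each point is a gene, red where the adjusted p was under 0.05. Black lines are list medians and open diamonds medians with length-scaled counts. Microglia markers keep a median of 1.07 under both, and general MSN genes move from -0.26 to -0.017.

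The lowest fold changes among protein-coding genes over 10 CPM were scattered over functions. Rps10, of the small ribosomal subunit, was 70.3 [38.8 to 80.0] against 31.9 [23.5 to 49.0] CPM (-1.01 ± 0.17 SE). Srp54a, of the signal recognition particle, was 62.0 [52.2 to 91.2] against 36.03 [25.2 to 52.4] CPM (-0.90 ± 0.18 SE). Both have close copies in the genome. Uqcr10, a subunit of respiratory complex III, was 23.3 [18.3 to 27.3] against 12.4 [8.97 to 16.2] CPM (-0.87 ± 0.15 SE, adjusted p = 0.000211, edgeR). Acaa2, of mitochondrial fatty acid oxidation, was 16.7 [13.7 to 20.5] against 11.2 [5.44 to 12.9] CPM (-0.78 ± 0.15 SE), both with groups apart. B4gat1, Phospho1, Ahcy and Polr2g gave -1.31, -1.20, -0.76 and -0.74, with groups that overlapped. The histone H2bc4 gave -0.74 and the predicted gene Gm49388, which spans Hsd3b7 and Setd1a on the same strand, -0.77.

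Chemosensory receptors, which have no settled role in the striatum, rose. Of 1470 olfactory, vomeronasal and taste receptor genes tested, 286 rose (19.5%, against 7.5% of all genes) and 1 fell, with a median of 0.55. Or13a18 was 617 [449 to 762] against 874 [640.2 to 1138] CPM (0.53 ± 0.071 SE, adjusted p = 2.60e-05, edgeR). Vmn2r114 was 198 [158 to 237] against 304 [232 to 362] CPM (0.61 ± 0.070 SE). Their groups overlapped while each pool went up. Vmn1r130, the member that fell, was 0.728 [0.210 to 1.53] CPM in non-ensemble libraries and at 0 in 5 of 6 overlapping libraries. Length-scaled counts left 18 that rose and 4 that fell, with a median of 0.16 and Or13a18 at 0.033, and without the pool term 61 rose. Of 4848 pseudogenes 331 rose (6.83%, under the 7.5% of all genes) and 22 fell, with a median of 0.53. Snhg11, a long RNA host of small nucleolar RNAs, was 274 [167 to 426] against 433 [393 to 502] CPM (0.62 ± 0.14 SE). Reads for these families may be split among copies, and their part in the fall of the abundant genes was not tested.

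Few genes differed in this effect between the sexes, and their number depended on the tool. With the difference of the overlapping minus non-ensemble change between males and females tested directly, 0 genes passed an adjusted p of 0.05 in edgeR's quasi-likelihood test and 0 in limma-voom, 5 did in DESeq2 and 16 in edgeR's likelihood-ratio test, and 1505 (5.98%) had an unadjusted p under 0.05. Without female pool 2 the counts were 0, 0, 4 and 17, and 1253 (5.00%) had an unadjusted p under 0.05. The smallest p-values among protein-coding genes of at least 10 CPM belonged to Gm45234, which shares its strand and span with Atn1 and Grcc10 (male minus female difference -2.69 on the log2 scale), Pced1a (1.29), Arhgap35 (0.74), Gramd2a (1.23) and Dynlrb1 (-0.84), all with an adjusted p of 0.662 (edgeR). Without female pool 2 the differences of these 5 were -2.75, 1.19, 0.74, 1.42 and -0.64, with adjusted p of 0.812 to 0.961. Arhgap35 fell in both sexes together (-0.63 ± 0.12 SE). Fitted alone, the female libraries gave 576 genes up and 643 down and the male libraries 589 and 833. The female libraries without pool 2, which leave 2 pools, gave 53 and 27. Leaving out all 4 libraries of female pool 2 gave 1499 up and 2762 down, with 13 microglia markers still higher.

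Fewest genes set overlapping neurons apart from cocaine-seeking neurons of the same pools. Between these, 0 of 25150 genes passed in edgeR's quasi-likelihood test, 1 in limma-voom and 4 in DESeq2, and 1091 (4.34%) had an unadjusted p under 0.05. Against sucrose-seeking neurons 2213 genes were higher in overlapping (8.8%) and 907 lower (3.61%). Against the same non-ensemble libraries, cocaine-seeking neurons gave 1165 genes higher (4.63%) and 1660 lower (6.6%), and sucrose-seeking neurons 4234 (16.8%) and 4934 (19.6%). These contrasts share libraries with the main one, so their values are set side by side only.

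For microglia markers the cocaine-seeking contrast had a median of 0.83, with 12 of 14 higher, and the sucrose-seeking contrast -0.22, with 1 higher and 4 lower. Csf1r was 105 to 142 CPM in cocaine-seeking and 46.0 to 73.2 CPM in sucrose-seeking libraries, and Laptm5 27.7 to 45.1 and 12.6 to 16.4 CPM. Both sucrose-seeking ranges lay wholly under the overlapping range. Mitochondrially encoded genes had medians of -0.47 against non-ensemble in both overlapping and cocaine-seeking neurons and -0.86 in sucrose-seeking neurons. Pan-neuronal genes had medians of -0.35 in overlapping, -0.27 in cocaine-seeking and -0.74 in sucrose-seeking neurons. Endothelial markers, near the all-gene median in overlapping (0.17), had medians of 0.32 in cocaine-seeking and 1.02 in sucrose-seeking neurons, with 12 of 14 higher in the latter. Directly compared, 13 of 14 microglia markers were higher in overlapping than in sucrose-seeking libraries (median 1.36), and 12 of 14 endothelial markers were lower (median -0.87).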

How the data were processed

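Per the labels, the RNA of sorted neurons was polyA RNA, while the study's methods describe a SMART-seq preparation with ribosomal RNA removed. Reads were trimmed with cutadapt and quantified with Salmon. The deposited values are estimated counts per transcript (Salmon's read numbers) beside TPM, made by the authors from each library. The sources used here give neither tool versions nor the transcript release and strand setting. Estimated counts were summed to genes by transcript identifier (GENCODE mouse M39, GRCm39: 116085 of 117209 transcripts matched, and 2.25 to 4.39% of counts in the 12 libraries were on unmatched ones) and rounded to whole numbers. Deposited TPM served for the length-scaled alternative, in which each gene's TPM is turned back into counts with 1 length for all libraries.

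Groups were taken from titles and characteristics. The description field names another region, sex or population for some libraries and was not used. The 24 NAc libraries of the 4 populations were fitted together, with population and pool as terms, in edgeR 4.0.16 (TMM scaling, filterByExpr, quasi-likelihood test, Benjamini-Hochberg adjustment) under R 4.3.3. limma 3.58.1 and DESeq2 1.42.0 served as alternatives. Of the fits, only the edgeR quasi-likelihood comparison of overlapping with non-ensemble was tested on simulated data. The 4 libraries of a pool come from the same 3 mice, which pairs them. Deviations from the means of each population and sex correlated at 0.00554 to 0.422 (mean 0.273, 6 pairs) within pools. The lowest value was that of male pool 2. Its overlapping library correlated at 0.121 with the non-ensemble library of male pool 1, so the values do not show the pairing of that pool. Across pools of the same sex they correlated on average at -0.138. Each mean was over 3 libraries, which ties these averages together, so the value across pools is no separate evidence of pairing. Pools of separate mice were the replicates. Within the overlapping and within the non-ensemble group, no 2 libraries agreed within sampling noise. Other pairs of libraries were not checked for this. Library shares were compared by an exact sign-flip permutation test over pools.

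The members, the 48 gene lists and the tests were chosen with earlier results of these data known. Named genes were activity genes and identity genes given by name, the 12 highest and 12 lowest log2 fold changes among protein-coding genes of at least 10 CPM past an adjusted p of 0.05, up to 3 members per list and direction with the smallest adjusted p (where none passed, the 2 most abundant), and the 5 smallest p-values between the sexes. C1qa, C1qb, Ctss, Cx3cr1, P2ry12, Tyrobp, Trem2, Aif1, Homer1 and Or13a18 were named after their values were seen. A few genes that the rule names are not reported here. Libraries of naive mice and of the prefrontal cortex were not analysed here, apart from cortical levels given for the cortical excitatory list, which entered no test. Promoters are from RefSeq, GRCm38.p6. The depth of 9955013 to 20262217 counts resolves genes under 1 CPM poorly.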

Additional observations from a re-analysis of the deposited data

Results flagged for a closer look

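Within groups of 6 libraries, the highest or lowest value was compared with its nearest neighbour relative to the group's whole range. Of 354 groups looked at, 12 held a library that stood apart. Chance alone marks about 1 in 20 groups, so this is no more than chance gives, and no pattern is read from it.

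Among microglia markers, the lowest non-ensemble library for Tmem119 was at 6.49 CPM (next 10.8), the highest non-ensemble library for Csf1r was at 89.2 CPM (next 67.2), and the highest overlapping library for C1qa was at 57.8 CPM (next 41.3). The Csf1r library was that of female pool 2. In all 3 genes the groups did not overlap with these libraries included.

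Among activity, glial and vascular genes, the highest overlapping library for Nr4a3 was at 56.5 CPM (next 38.0) and for Flt1 at 52.1 CPM (next 37.9). The lowest non-ensemble library for Gjc3 was at 39.5 CPM (next 53.8). The highest overlapping library for Cep162, a gene of the cilium base that rose, was at 72.7 CPM (next 57.7).

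Among the remaining genes, the lowest non-ensemble library for mt-Co1 was at 5636 CPM (next 7666) and for Polr2g at 7.71 CPM (next 13.2), and the highest non-ensemble library for the histone H3c6 was at 26.05 CPM (next 16.3). Vmn1r130 was at 0 in 5 overlapping libraries and at 0.407 CPM in the remaining library. Summed over the glucocorticoid and clock list, the lowest non-ensemble library held 919 CPM (next 1099).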

How the results depend on the processing

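Genes higher and lower in overlapping neurons numbered 1887 and 2694. Without the replicate block, that is without pairing by pool, they were 590 and 640, and 1229 of the 1230 genes called were among the 4581 called with it. The stricter rule then gave 74 genes instead of 280 and the comparison with sucrose-seeking 760 instead of 3120. Length-scaled counts gave 677, 1349 and, against sucrose-seeking, 514. Female libraries alone gave 576, 643 and, by the stricter rule, 27. Male libraries alone gave 589, 833 and 31, with 99 against sucrose-seeking. The 12 compared libraries alone gave 1041 higher and 128 by the stricter rule, DESeq2 532 and edgeR's likelihood-ratio test 479 by that rule. Between the sexes DESeq2 called 5 genes and the likelihood-ratio test 16, and against cocaine-seeking DESeq2 called 4 and limma-voom 1, where the main test called 0. The cause of these shifts was not tested, beyond fewer libraries in the one-sex fits.

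Leaving out each library in turn gave 1471 to 1863 higher, 2132 to 3138 lower, 203 to 299 by the stricter rule, 0 to 1 between the sexes (1 without female non-ensemble pool 1), 0 to 0 against cocaine-seeking and 2046 to 3337 against sucrose-seeking (2046 without female overlapping pool 3). Leaving out female pool 2, chosen after seeing the data, gave 1499 higher and 2762 lower, and with that pool left out the female libraries alone gave 53, 27 and 11 by the stricter rule, and between the sexes DESeq2 called 4 genes and the likelihood-ratio test 17.

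With length-scaled counts 9 named genes changed direction, to 0.17 for Arc, 0.11 for Drd2, 0.029 for Ppp1r1b, 0.26 for Slc17a7, 0.29 for Bcl11b, 0.088 for Tbr1, 0.029 for Dlg4, 0.033 for Map1a and 0.0015 for Ncan. None of these 9 passed under that scaling. Of 113 named genes past the threshold, 27 passed under every alternative that gave a value, 10 of them among the 13 microglia markers named. Leaving out 1 library cost 24 named genes their call in at least 1 of the 12 fits, and in 6 or more of them for Higd1b, Vcan, Igf2, Gm49388, Grik2, Tac1, Vmn1r130, Gjc3, Gm38431, Tet2, Per3 and Scg2. In all, 56 named genes lost their call with length-scaled counts and 63 without the pool term.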
